A study of Mus musculus with 27 samples.

Results

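The report covers 8 mouse genes of the two-cell-like state, Zscan4a, Zscan4c, Zscan4d, Zscan4f, Zfp352, Tcstv1, Tcstv3 and Sp110. They were chosen by name, matched to Ensembl identifiers through GENCODE M21, and are 8 of the 53801 genes counted. All 8 passed the filter on low counts, which left 18363 genes. They were measured by paired-end RNA sequencing of TX1072 cells, a female mouse embryonic stem (ES) cell line from a cross of BL6 and CAST mice, grown in serum with LIF and 2 kinase inhibitors. Both lines studied carry a degron on SPEN, a large RNA-binding repressor that Xist RNA recruits to the X chromosome, so that auxin depletes the protein.

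The SPOC line expresses BglG-GFP-SPOC, in which the SPOC domain of SPEN is joined to GFP and to the RNA-binding protein BglG, and the GFP line expresses BglG-GFP alone. Each line was sampled after 12 hours of auxin followed by 24 hours of doxycycline (1 µg/mL) with auxin (Dox+Auxin), after 24 hours of doxycycline alone (Dox), and untreated. Doxycycline induces Xist in TX1072 cells. There were 5 libraries per condition of the SPOC line and 4 per condition of the GFP line, 27 in all, although the design text speaks of 4 biological replicates. The labels do not say whether the replicates are separate cultures or how many clones each line comes from, so the p-values below measure the spread between these libraries. No group received auxin without doxycycline, so the effect of auxin is seen only under doxycycline. No line without the degron was treated with auxin here, so the effects of the auxin compound and of SPEN loss cannot be told apart.

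At any time a small fraction of ES cells passes through a state that resembles the embryo at its cleavage stage after the first division, when the embryo's own genome is first transcribed. The transcription factor DUX opens this state, and a set of genes normally silent in ES cells, among them the Zscan4 cluster, is then transcribed together with MERVL retroviral elements. Chromatin repressors such as TRIM28, SETDB1, LSD1 and a non-canonical Polycomb complex restrain it. In bulk RNA, fewer cells in the state and less RNA per such cell cannot be told apart.

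Zscan4a, Zscan4c, Zscan4d and Zscan4f encode copies of a SCAN-domain zinc finger protein known for telomere elongation in mouse ES cells. On GRCm38 they lie in 1 cluster of chromosome 7, Zscan4a (ENSMUSG00000110097) at 10794242 to 10799057 on the minus strand, Zscan4c (ENSMUSG00000054272) at 11005745 to 11010547 on the plus strand, Zscan4d (ENSMUSG00000090714) at 11161374 to 11166159 on the minus strand and Zscan4f (ENSMUSG00000070828) at 11397915 to 11402318 on the plus strand. M21 annotates Zscan4a as an unprocessed pseudogene and the other members as protein-coding. Zfp352 (ENSMUSG00000070902, chromosome 4, 90218820 to 90225702, plus strand) encodes another zinc finger protein of the early embryo. Tcstv1 (ENSMUSG00000096284, chromosome 13, 119893388 to 119894785, minus strand) and Tcstv3 (ENSMUSG00000095821, chromosome 13, 120316878 to 120318178, plus strand) belong to a small family named for its variable expression at that embryonic stage. Sp110 (ENSMUSG00000070034, chromosome 1, 85576899 to 85598817, minus strand) encodes a nuclear body protein of the SP100 family.

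RefSeq promoter windows of GRCm38.p6, running from 250 bases before to 50 bases after a transcription start, were matched by symbol for 5 of the 8 members, as 6 windows. Zscan4a, Tcstv1 and Tcstv3 were not among them. The windows of the Zscan4 copies are shown because the copies moved together and nearly share their sequence. Capitals mark the letters TATAAA:
Zscan4c, chr7:11005495-11005794, plus strand: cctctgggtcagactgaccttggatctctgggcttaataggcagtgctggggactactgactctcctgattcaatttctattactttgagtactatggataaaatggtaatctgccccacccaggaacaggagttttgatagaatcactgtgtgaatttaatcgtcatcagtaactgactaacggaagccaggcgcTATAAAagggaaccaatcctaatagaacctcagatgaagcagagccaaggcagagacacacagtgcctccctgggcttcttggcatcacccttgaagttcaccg
Zscan4d, chr7:11166099-11166398, minus strand: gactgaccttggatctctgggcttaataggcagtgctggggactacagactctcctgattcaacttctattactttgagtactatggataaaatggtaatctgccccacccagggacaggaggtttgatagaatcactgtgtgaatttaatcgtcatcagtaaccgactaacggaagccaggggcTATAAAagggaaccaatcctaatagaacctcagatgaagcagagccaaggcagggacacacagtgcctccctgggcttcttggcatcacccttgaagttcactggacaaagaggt
Zscan4f, chr7:11397665-11397964, plus strand: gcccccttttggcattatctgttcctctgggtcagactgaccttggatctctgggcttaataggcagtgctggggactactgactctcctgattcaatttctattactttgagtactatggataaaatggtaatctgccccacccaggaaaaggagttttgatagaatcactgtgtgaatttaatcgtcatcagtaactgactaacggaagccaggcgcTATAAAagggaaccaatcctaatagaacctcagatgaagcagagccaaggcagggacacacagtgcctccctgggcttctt
Over the bases that align, the Zscan4c and Zscan4f windows were identical at 275 of 277 positions, Zscan4c and Zscan4d at 281 of 289, and Zscan4d and Zscan4f at 259 of 266. TATAAA occurred once in each of these 3 windows and in 13.6% of the 32544 distinct windows of the table, with both strands searched.

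The windows of Zfp352 and of the upstream start of Sp110 are shown because both windows, on different chromosomes, hold the 15 letters AACACACCTTTAATC 3 times. Capitals mark the last 7 letters of each full match:
Zfp352, chr4:90218570-90218869, plus strand: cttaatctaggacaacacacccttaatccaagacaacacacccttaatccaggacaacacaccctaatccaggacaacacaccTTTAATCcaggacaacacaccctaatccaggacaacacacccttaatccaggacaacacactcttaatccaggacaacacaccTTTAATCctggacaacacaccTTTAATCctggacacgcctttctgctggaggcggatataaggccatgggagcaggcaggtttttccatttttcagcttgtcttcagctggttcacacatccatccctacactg
Sp110, upstream start, chr1:85603842-85604141, minus strand: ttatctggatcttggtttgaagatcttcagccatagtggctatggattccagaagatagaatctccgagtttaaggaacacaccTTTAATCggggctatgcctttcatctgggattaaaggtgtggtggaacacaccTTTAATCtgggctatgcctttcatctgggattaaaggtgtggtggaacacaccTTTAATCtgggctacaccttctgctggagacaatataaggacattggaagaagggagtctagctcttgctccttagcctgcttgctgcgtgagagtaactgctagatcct
The run was picked after the windows had been read. It occurred in 0.0584% of the distinct windows (identical windows counted once), on either strand. Over all windows it occurred at 22 genes, of which 4 were tested. The shorter TTTAATC, which it contains, occurred in 3.24%. The window at the other start of Sp110 (chr1:85598761-85599060, minus strand), where the M21 gene begins, held neither TTTAATC nor the run. The tested genes with the run were Zfp352, Sp110, Gm12790 and Pemt, and the run was taken from the first 2, which are members. Gm12790 fell in both lines with auxin, compared with Dox alone, by 1.56 in the SPOC line and by 2.61 in the GFP line (log2 fold changes, SE 0.21 and 0.26, adjusted p = 8.5e-07 and 1.6e-09 by edgeR). In that comparison 15.4% of all genes were called lower in the SPOC line and 22.9% in the GFP line. Pemt, a phospholipid-synthesis enzyme, had log2 fold changes of -0.07 ± 0.10 and 0.17 ± 0.11 in those comparisons (SE, edgeR adjusted p = 0.64 and 0.23). These matches describe the letters of the windows and were not tested as sites, and a link between the run and the fall was not tested.

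Because the Zscan4 copies are so alike, the reads of 1 copy could have been counted at another. Of the distinct 100-base stretches of each annotated transcript, the share also present in another gene's transcript was 39.1% for Zscan4a, 72.8% for Zscan4c, 29.6% for Zscan4d and 80.6% for Zscan4f. It was 17.5% for Sp110, mostly through Gm16026, 7.79% for Tcstv3, 3.58% for Tcstv1 and 0.643% for Zfp352. The copies were therefore also summed, and the Zscan4 sum and the sum of Tcstv1 and Tcstv3 are given beside the single copies.

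The libraries held 28936459 to 45489094 counts. Xist was at 290 to 415 CPM, counts scaled to a common library size, in SPOC Dox+Auxin, 308 to 458 CPM in SPOC Dox, 382 to 630 CPM in GFP Dox+Auxin and 747 to 918 CPM in GFP Dox. Untreated GFP libraries had 5.43 to 7.82 CPM of Xist and 4 of the 5 untreated SPOC libraries 1.03 to 1.69 CPM, but untreated SPOC replicate 2 had 178 CPM and stands apart, so results that rest on it are also given without it. Spen RNA was at 973 to 1242 CPM in SPOC Dox+Auxin against 329 to 369 CPM in SPOC Dox, and at 634 to 1164 CPM in GFP Dox+Auxin against 178 to 214 CPM in GFP Dox, so the RNA does not itself show the loss of the protein. All 10 ES cell markers listed passed the filter, with a summed level of 5901 to 7021 CPM over the 27 libraries.

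With auxin under doxycycline, all 8 genes fell in both lines. The Zscan4 sum was 3.65-fold lower in SPOC Dox+Auxin than in SPOC Dox cells and 3.53-fold lower in GFP Dox+Auxin than in GFP Dox cells. Zfp352, the Tcstv sum and Sp110 were 2.97-fold, 3.69-fold and 3.40-fold lower in the SPOC line and 3.47-fold, 3.36-fold and 3.48-fold lower in the GFP line. Every library with auxin lay below every library without it, across both lines, for 8 of 8 members and for 2.36% of all genes tested. Within a line, the auxin libraries all lay below the Dox libraries for 8.51% of all genes in the SPOC line and 19.9% in the GFP line.

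**Figure D1:**
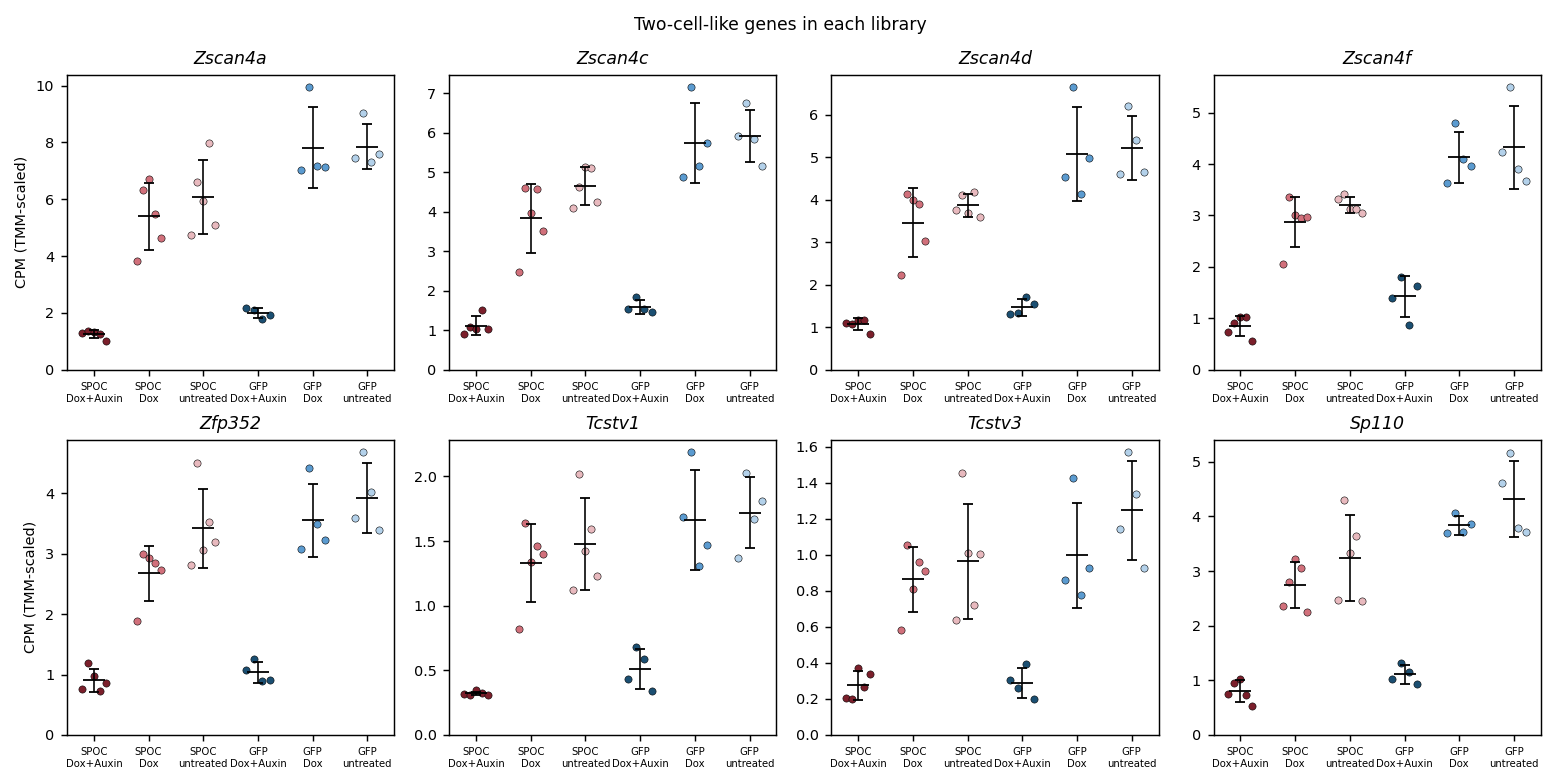
CPM (scaled by TMM, linear axes from 0) of each member in the 27 libraries, one point per library, with group mean and SD as bars; the SPOC line stands left of the GFP line and Dox+Auxin left of Dox and untreated. In all 8 panels the Dox+Auxin points of both lines lie below all other points.

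In the SPOC line the Zscan4 sum was 4.01, 4.40, 4.55, 4.97 and 3.41 CPM with Dox+Auxin, 10.6, 18.4, 17.7, 16.9 and 14.2 CPM with Dox, and 15.9, 18.8, 17.9, 20.4 and 15.9 CPM untreated. For the GFP line the values were 6.40, 7.07, 5.88 and 6.53 CPM with Dox+Auxin, 20.1, 28.6, 20.6 and 21.8 CPM with Dox, and 22.2, 27.5, 22.5 and 21.1 CPM untreated. The auxin libraries were below the others in both lines, while Dox and untreated libraries of 1 line overlapped. Against Dox, the log2 fold change of the Zscan4 sum with Dox+Auxin was -1.87 ± 0.14 in the SPOC line and -1.82 ± 0.15 in the GFP line (SE; edgeR adjusted p = 2.6e-10 and 1.6e-10). Against untreated cells it was -2.06 ± 0.14 in the SPOC line and -1.85 ± 0.14 in the GFP line (edgeR adjusted p = 3.8e-11 and 2.8e-10).

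The 4 copies fell by similar amounts. Zscan4a had the steepest fall of the copies with auxin, compared with Dox alone, -2.12 ± 0.17 in the SPOC line and -1.98 ± 0.17 in the GFP line (log2 fold change, SE; edgeR adjusted p = 7.2e-11 and 5.5e-11). Its levels were 1.28, 1.35, 1.32, 1.26 and 0.991 CPM in SPOC Dox+Auxin, against 3.84, 6.33, 6.70, 5.47 and 4.65 CPM in SPOC Dox cells. GFP cells had 2.17, 2.10, 1.76 and 1.93 CPM with Dox+Auxin against 7.05, 9.95, 7.16 and 7.12 CPM with Dox. The groups were well apart in each line, with Dox replicate 2 of the GFP line above the other 3.

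Zscan4c ranged from 0.901 to 1.52 CPM in SPOC Dox+Auxin against 2.47 to 4.61 CPM in SPOC Dox, and from 1.45 to 1.84 CPM in GFP Dox+Auxin against 4.88 to 7.16 CPM in GFP Dox. Zscan4d ranged from 0.836 to 1.17 CPM against 2.23 to 4.13 CPM in the SPOC line, and from 1.30 to 1.71 CPM against 4.14 to 6.66 CPM in the GFP line, in the same order of groups. The log2 fold changes of these 2 copies were -1.79 ± 0.16 and -1.69 ± 0.16 in the SPOC line and -1.86 ± 0.16 and -1.80 ± 0.17 in the GFP line (SE). Zscan4f had 0.557 to 1.03 CPM in SPOC Dox+Auxin against 2.06 to 3.36 CPM in SPOC Dox, and 0.868 to 1.81 CPM in GFP Dox+Auxin against 3.64 to 4.81 CPM in GFP Dox. Its log2 fold changes were -1.76 ± 0.18 and -1.55 ± 0.17 in the SPOC and GFP lines, and the highest edgeR adjusted p among these 3 copies in both lines was 1.1e-08.

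Of the counts given to the 4 copies, Zscan4a held 33.7% ± 3.0, Zscan4c 25.3% ± 2.1, Zscan4d 22.4% ± 2.2 and Zscan4f 18.6% ± 2.6 (mean and SD over 27 libraries). The share of Zscan4a was 29.2% ± 2.5 in SPOC Dox+Auxin, 34.7% ± 2.3 in SPOC Dox and 33.8% ± 3.6 in untreated SPOC cells (SD, n = 5 each). In the GFP line it was 30.8% ± 2.1 with Dox+Auxin, 34.3% ± 1.1 with Dox and 33.7% ± 1.6 untreated (SD, n = 4 each). These shares were not tested and carry the uncertainty of the shared sequence.

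Zfp352 was at 0.755, 1.18, 0.973, 0.732 and 0.867 CPM in SPOC Dox+Auxin, 1.88, 3.00, 2.93, 2.85 and 2.73 CPM in SPOC Dox and 2.81, 4.51, 3.06, 3.52 and 3.20 CPM in untreated SPOC cells. In the GFP line it was at 1.07, 1.26, 0.896 and 0.909 CPM with Dox+Auxin, 3.08, 4.43, 3.50 and 3.23 CPM with Dox, and 3.59, 4.69, 4.02 and 3.40 CPM untreated. The auxin libraries of the 2 lines overlapped each other and no other group. Against Dox the log2 fold changes were -1.57 ± 0.17 in the SPOC line and -1.79 ± 0.18 in the GFP line (SE; edgeR adjusted p = 2.1e-08 and 1.2e-09), and against untreated cells -1.92 ± 0.17 and -1.93 ± 0.18 (edgeR adjusted p = 2.9e-10 and 4.4e-10).

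Tcstv1 and Tcstv3 were the members with the fewest counts. Tcstv1 had 0.320, 0.310, 0.343, 0.322 and 0.310 CPM in SPOC Dox+Auxin against 0.823, 1.64, 1.33, 1.46 and 1.40 CPM in SPOC Dox, and 0.434, 0.678, 0.588 and 0.341 CPM in GFP Dox+Auxin against 1.69, 2.19, 1.31 and 1.47 CPM in GFP Dox. Tcstv3 had 0.203, 0.197, 0.372, 0.263 and 0.341 CPM in SPOC Dox+Auxin against 0.583, 1.05, 0.812, 0.961 and 0.911 CPM in SPOC Dox, and 0.306, 0.258, 0.392 and 0.199 CPM in GFP Dox+Auxin against 0.859, 1.43, 0.777 and 0.926 CPM in GFP Dox. The Tcstv3 values with auxin rest on 7 to 14 counts per library. The log2 fold changes were -2.05 ± 0.23 in the SPOC line and -1.72 ± 0.23 in the GFP line for Tcstv1, and -1.65 ± 0.27 and -1.79 ± 0.29 for Tcstv3 (SE; edgeR adjusted p = 4.9e-08, 2.3e-07, 2.3e-05 and 6.6e-06). For the Tcstv sum they were -1.88 ± 0.22 in the SPOC line and -1.75 ± 0.22 in the GFP line against Dox, and -2.03 ± 0.21 and -1.90 ± 0.22 against untreated cells (SE).

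Sp110 was at 0.755, 0.958, 1.03, 0.732 and 0.526 CPM in SPOC Dox+Auxin, 2.36, 2.80, 3.22, 3.05 and 2.25 CPM in SPOC Dox and 2.46, 4.30, 3.34, 3.64 and 2.46 CPM in untreated SPOC cells. GFP cells had 1.02, 1.32, 1.15 and 0.937 CPM with Dox+Auxin, 3.70, 4.07, 3.72 and 3.86 CPM with Dox, and 4.61, 5.17, 3.79 and 3.72 CPM untreated. The auxin groups were again apart from all others. Against Dox the log2 fold changes were -1.76 ± 0.18 in the SPOC line and -1.80 ± 0.18 in the GFP line (SE; edgeR adjusted p = 5.6e-09 and 1.3e-09).

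Against Dox, 8 of 8 genes were called lower in SPOC Dox+Auxin cells, where 15.4% of all genes tested were, and 8 of 8 in GFP Dox+Auxin cells, where 22.9% were (edgeR adjusted p under 0.05). Against untreated cells 8 of 8 were called lower in each line, beside 16.6% of all genes in the SPOC line and 18.4% in the GFP line. The median log2 fold change of the members was -1.76 in the SPOC line and -1.79 in the GFP line against Dox, and that of all genes tested was -0.01 and 0.00. Depending on the member, 10 to 113 of the 18363 genes had a lower log2 fold change in the SPOC line and 66 to 215 in the GFP line. Without untreated SPOC replicate 2, 8 of 8 members were still called lower in SPOC Dox+Auxin against untreated cells, and the log2 fold change of the Zscan4 sum was -2.03.

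**Figure D2:**
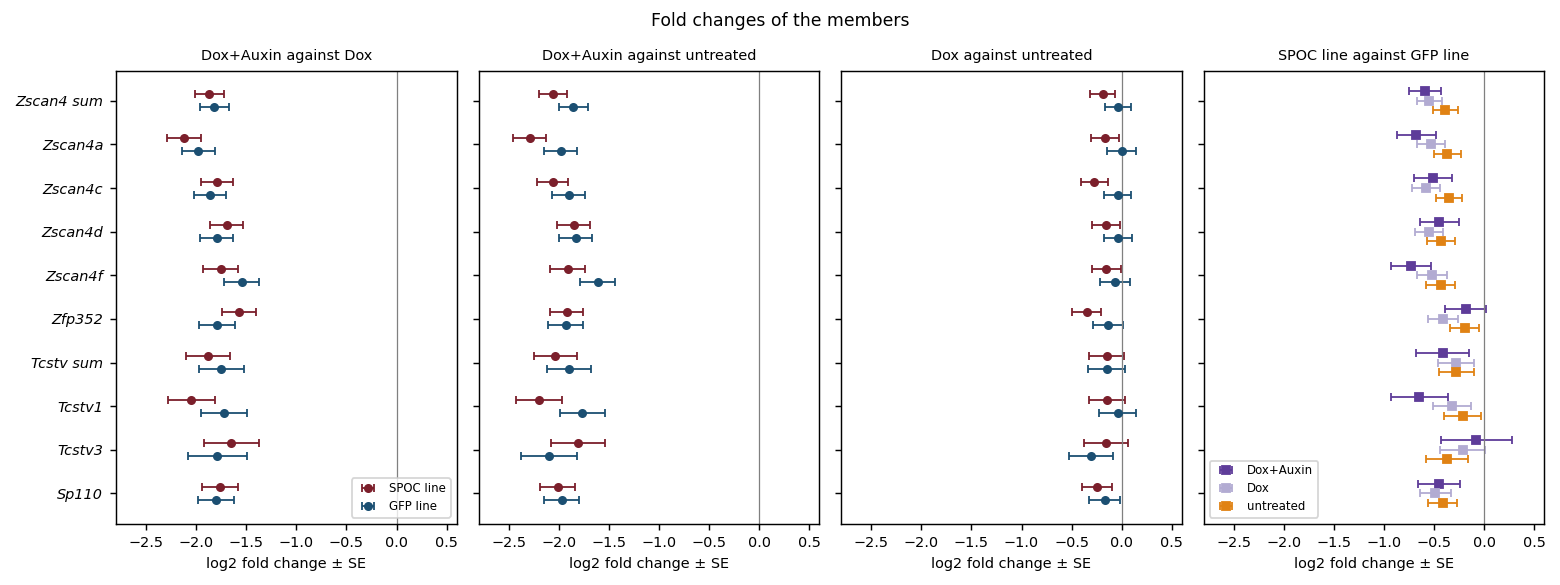
Log2 fold changes (edgeR) with their SE for the members and the summed copies, SPOC line in red and GFP line in blue in the left 3 panels, and the SPOC line against the GFP line within each condition in the right panel. With Dox+Auxin all values lie between -2.29 and -1.55, the Dox values lie near 0, and the line differences lie at or left of 0.

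The size of the auxin effect was compared between the lines as an interaction, the effect in the SPOC line minus that in the GFP line. It was called for 0 of 8 members, beside 8.14% of all genes in either direction. The Zscan4 sum had a difference of -0.05 with an approximate 95% interval of -0.44 to 0.35 (log2), Zfp352 one of 0.22 (-0.27 to 0.72), the Tcstv sum one of -0.13 (-0.75 to 0.49) and Sp110 one of 0.04 (-0.49 to 0.56). An unadjusted p under 0.05 was reached by 0 of 8 members, and DESeq2 called 0 of 8. Differences within these intervals were not detectable here, and the intervals do not show that the lines respond alike.

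In the fit without a replicate block, no member was called with doxycycline alone, but with the block 2 were called lower in the SPOC line. The values that follow are without the block unless stated. In Dox against untreated cells 0 of 8 members were called in the SPOC line, where 7.33% of all genes were called lower and 6.16% higher, and 0 of 8 in the GFP line, where 10.8% were called lower and 10.1% higher. The log2 fold changes of the Zscan4 sum were -0.19 in the SPOC line (approximate 95% interval -0.43 to 0.05) and -0.03 in the GFP line (-0.29 to 0.22), and those of the Tcstv sum were -0.15 in each line (-0.50 to 0.19 and -0.51 to 0.21). Zfp352 had -0.35 ± 0.14 in the SPOC line and -0.14 ± 0.15 in the GFP line (SE; edgeR adjusted p = 0.11 and 0.58). Before adjustment, p was under 0.05 for 1 of 8, Zfp352, in the SPOC line and for 0 of 8 in the GFP line, and DESeq2 called 0 of 8 in each. The interaction of this comparison was called for 0 of 8 members, beside 0.24% of all genes, with 0 of 8 under 0.05 before adjustment and 0 of 8 called by DESeq2. Without untreated SPOC replicate 2, the log2 fold change of the Tcstv sum in SPOC Dox cells against untreated ones was 0.02 in place of -0.15, and that of the Zscan4 sum was -0.16. With a replicate block, Zscan4c (-0.28) and Zfp352 (-0.35) were called lower in SPOC Dox than in untreated SPOC cells (edgeR adjusted p = 0.026 and 0.0074). The Zscan4 sum was then at -0.20 (edgeR adjusted p = 0.024), and 4145 genes were called in either direction. No member's call changed in the GFP line with the block.

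All 8 genes had lower mean levels in the SPOC line than in the GFP line in every condition, by a smaller margin than with auxin. Some of the calls, though not all, depended on single libraries. The Zscan4 sum averaged 4.27 ± 0.59 CPM in SPOC and 6.47 ± 0.49 CPM in GFP cells with Dox+Auxin, 15.6 ± 3.2 CPM and 22.8 ± 3.9 CPM with Dox, and 17.8 ± 1.9 CPM and 23.3 ± 2.9 CPM untreated (SD, n = 5 SPOC and 4 GFP libraries). The log2 fold changes, SPOC over GFP, were -0.60 ± 0.16 with Dox+Auxin, -0.55 ± 0.13 with Dox and -0.39 ± 0.12 untreated (SE; edgeR adjusted p = 0.0073, 0.0059 and 0.043). With a single library left out in turn, the value of the sum ranged from -0.66 to -0.53 with Dox+Auxin and from -0.62 to -0.42 with Dox, called in each of 27 refits, and from -0.45 to -0.30 untreated, where the call was lost in 8 of 27. One of these 8 was the refit without untreated SPOC replicate 2 (-0.41, edgeR adjusted p = 0.054).

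With Dox, 5 of 8 members were called lower in the SPOC line, where 5.33% of all genes were: Zscan4a, Zscan4c, Zscan4d, Zscan4f and Sp110, with log2 fold changes of -0.58 to -0.49. Without GFP Dox replicate 2, the library highest in all 4 Zscan4 copies, 0 of 8 were called, and without SPOC Dox replicate 1, the lowest in them, 3 of 8 were. The Sp110 call was lost in 7 of 27 refits with a library left out. With Dox+Auxin, 3 of 8 were called lower, Zscan4a, Zscan4c and Zscan4f, beside 13.5% of all genes. The call of Zscan4c (-0.51, edgeR adjusted p = 0.046) was lost in 8 of 27 refits with a library left out, at -0.53 to -0.44, and those of Zscan4a and Zscan4f in 0 of 27. In untreated cells 2 of 8 were called lower, Zscan4d (-0.43 ± 0.14) and Zscan4f (-0.43 ± 0.15), beside 5.77% of all genes (SE; edgeR adjusted p = 0.041 and 0.0498), and these calls were lost in 8 and 18 of 27 such refits. Without untreated SPOC replicate 2, Sp110 was the only member called lower there, at a log2 fold change of -0.54 (edgeR adjusted p = 0.019). Zfp352 and the Tcstv genes were called in none of the 3 line comparisons, with log2 fold changes of -0.65 to -0.08, and the Tcstv sum was at -0.41 ± 0.26 with Dox+Auxin, -0.28 ± 0.18 with Dox and -0.28 ± 0.18 untreated (SE; edgeR adjusted p = 0.27, 0.36 and 0.32).

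The order of the 6 group means was the same for all 8 genes: SPOC Dox+Auxin, GFP Dox+Auxin, SPOC Dox, untreated SPOC, GFP Dox and untreated GFP, from low to high. Neighbours in this order did not all differ beyond their spread. Without a replicate block, the Dox and untreated groups of a line were called different for 0 of 8 members. The untreated SPOC and GFP Dox libraries overlapped for every member but Zscan4f. The share of all genes with this order or this overlap was not computed. Several members share sequence and all vary together, so the common order is a description only. The levels of different genes were compared on the authors' length-scaled values, which are counts per kilobase of gene adjusted for library size. In untreated GFP cells these were 119 ± 12 for Zscan4a, 90.1 ± 9.9 for Zscan4c, 79.6 ± 11.6 for Zscan4d, 76.5 ± 14.4 for Zscan4f, 59.7 ± 8.7 for Zfp352, 55.4 ± 12.2 for Tcstv3, 42.6 ± 6.9 for Tcstv1 and 22.1 ± 3.5 for Sp110 (SD, n = 4). The values of the Zscan4 copies carry the uncertainty of their shared sequence, so no ranking of the copies is drawn from them.

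The members also varied together within groups. The 27 libraries form 2 clusters, with and without auxin, so a correlation over all of them mostly restates that step. With each library's log2 CPM taken as its deviation from the group mean, Pearson's r between the Zscan4 sum and Zfp352 was 0.67 over 27 libraries and 0.85 over the 18 without auxin. For the Zscan4 sum and the Tcstv sum it was 0.58 and 0.79, and for the Zscan4 sum and Sp110 0.64 and 0.67. Over all 6 pairs of the 4 profiles the range was 0.49 to 0.67 for 27 libraries and 0.60 to 0.90 for 18. These are descriptions, since the values of 1 library share its depth and scaling.

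**Figure D3:**
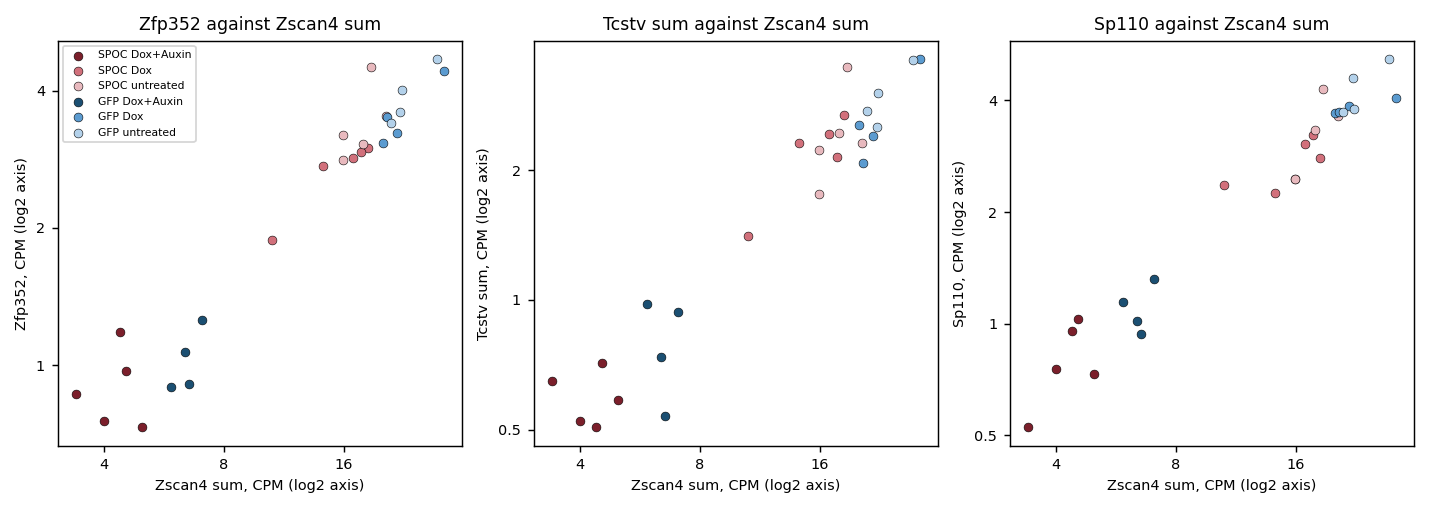
Zfp352, the Tcstv sum and Sp110 against the Zscan4 sum, in CPM on log2 axes, one point per library and one colour per group. The 9 auxin libraries form a lower left group in each panel, and within the other 18 the genes are high and low in the same libraries.

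Genes with the most similar profile were sought among the 14201 genes of at least 1 CPM on average, by Pearson's r with the mean log2 CPM of the members over the 27 libraries. The first 10 were Gm21761, Gm5662, B020031M17Rik, Pramef25, Tmem92, Gm11543, Gm16026, Usp17lc, Gm1995 and Zscan4-ps3, with r of 0.98 to 0.99, and 40 genes had r over 0.95. Of these 10, 7 were on the list of other two-cell-like genes, and 7 also stood among the 10 most like the Zscan4 sum alone. With Dox+Auxin against Dox their log2 fold changes were -1.94 to -1.43 in the SPOC line and -1.98 to -1.46 in the GFP line. A correlation over the 27 libraries mostly restates the auxin step, so this fall follows from how the genes were picked. Gm16026 and Zscan4-ps3 share sequence with Sp110 and with the Zscan4 copies, so their counts are not independent of the members.

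Most tested neighbours of the members in their clusters fell too, though not all of their counts are independent of the members. Zscan4b, Zscan4e and Zscan4-ps1 share 100-base stretches with member copies, and Gm21818 shares some with Tcstv1 and Tcstv3. Between Zscan4a and Zscan4f, 37 genes are annotated and 7 passed the filter, the 4 members and Zscan4b, Zscan4-ps1 and Zscan4e, and all 3 others were lower with auxin than with Dox alone in both lines, with log2 fold changes of -2.01 to -1.63 in the SPOC line and -2.03 to -1.63 in the GFP line. Between Tcstv1 and Tcstv3, 8 other genes were tested and 7 were lower in each line: Gm21761, B020031M17Rik, Gm20767, Gm21818, Gm21731, AF067061 and BC147527. The exception was Gm20900, a processed pseudogene, with log2 fold changes of 0.28 in the SPOC line and -0.12 in the GFP line (edgeR adjusted p = 0.50 and 0.80).

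Among other genes of the state, taken from a list of 54 of which 40 could be tested, 33 were lower and 1 higher in SPOC Dox+Auxin against SPOC Dox cells, and 35 were lower and 2 higher in the GFP line. Of all genes tested, 16.6% were called higher in the SPOC line and 24.7% in the GFP line, beside the shares called lower given above. The median log2 fold changes were -1.47 and -1.54, beside -0.01 and 0.00 over all genes tested. In the SPOC line the largest falls under the naming rule were those of Zscan4e, Zscan4-ps2, Usp17lb and Zscan4-ps3, at -2.01 ± 0.21, -1.95 ± 0.25, -1.90 ± 0.21 and -1.82 ± 0.18 (log2, SE). In the GFP line they were Gm8300, Gm2016, Zscan4-ps1 and Zscan4-ps3, at -2.18 ± 0.16, -2.09 ± 0.17, -2.03 ± 0.19 and -1.98 ± 0.19. Zfp600, a zinc finger gene, was higher in the SPOC line by 0.21 ± 0.08, and Ddit4l, an inhibitor of mTOR signalling, was higher in the GFP line by 0.34 ± 0.10 (edgeR adjusted p = 0.04 and 0.005). With Dox against untreated cells only Gm13119 was called in each line, at -0.40 ± 0.12 in the SPOC line and -0.35 ± 0.13 in the GFP line. The list overlaps the genes just named as most like the members, and its genes were chosen with results of these data known.

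**Figure D4:**
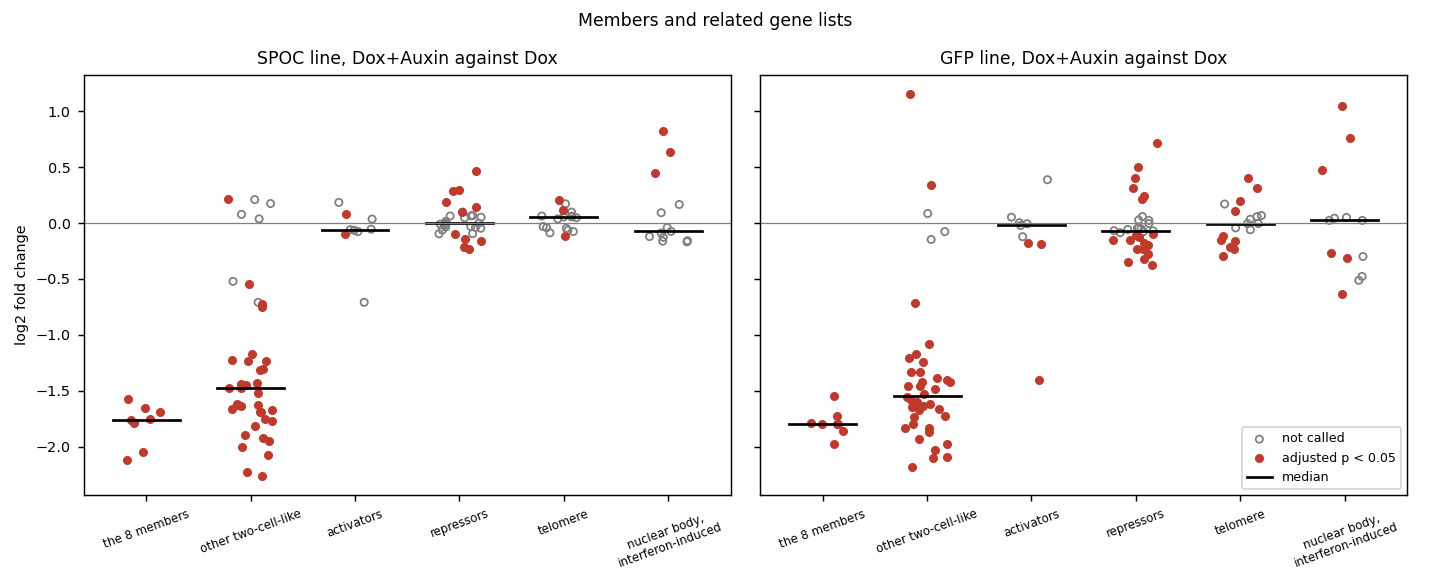
Log2 fold changes with Dox+Auxin against Dox for the members and 5 gene lists, SPOC line left and GFP line right; filled points passed an edgeR adjusted p of 0.05, open points did not, and the bar is the median. The members and the other two-cell-like genes lie far below 0 and the other lists around 0.

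Of the 9 activators of the state tested, 1 was lower and 1 higher in the SPOC line and 3 were lower in the GFP line with Dox+Auxin against Dox. Of all genes tested, 15.4% were called lower and 16.6% higher in the SPOC line, and 22.9% and 24.7% in the GFP line. Duxf3, the annotated copy of the gene for DUX, lies below the level of the naming rule and is given for its role. It averaged 0.143 ± 0.126 CPM in SPOC Dox+Auxin, 0.245 ± 0.100 CPM in SPOC Dox and 0.356 ± 0.085 CPM in untreated SPOC cells (SD, n = 5), and 0.155 ± 0.069 CPM in GFP Dox+Auxin, 0.415 ± 0.062 CPM in GFP Dox and 0.434 ± 0.077 CPM in untreated GFP cells (SD, n = 4). Against Dox its log2 fold change was -0.71 ± 0.42 in the SPOC line and -1.40 ± 0.41 in the GFP line, and against untreated cells -1.26 ± 0.39 and -1.46 ± 0.39 (SE; edgeR adjusted p = 0.21, 0.0049, 0.012 and 0.0035). Dppa2 and Dppa4, which act upstream of Dux in mouse ES cells, were abundant, and Dppa4 fell by 0.10 on the log2 scale in the SPOC line and by 0.19 in the GFP line against Dox. Dppa2 had log2 fold changes of -0.08 and -0.12 (edgeR adjusted p = 0.26 and 0.075). Smarca5 was the activator called higher in the SPOC line, at 0.08 ± 0.03, and was at -0.01 ± 0.03 in the GFP line (SE, edgeR adjusted p = 0.034 and 0.90). Tbx3 was at -0.06 ± 0.05 in the SPOC line and -0.18 ± 0.05 in the GFP line (SE, edgeR adjusted p = 0.35 and 0.0049). The median log2 fold changes of the 9 activators were -0.06 in the SPOC line and -0.02 in the GFP line.

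The 31 repressors of the state moved in both directions: 6 were higher and 5 lower in the SPOC line, and 6 higher and 13 lower in the GFP line, with medians of -0.00 and -0.07. In this comparison, Dox+Auxin against Dox, 16.6% of all genes were called higher and 15.4% lower in the SPOC line. For the GFP line these shares were 24.7% and 22.9%. Lin28a, whose RNA-binding product acts with nucleolin on Dux, was higher by 0.46 ± 0.09 in the SPOC line and 0.72 ± 0.10 in the GFP line, and E2f6, a subunit of a non-canonical Polycomb complex, by 0.29 ± 0.04 and 0.50 ± 0.04 (log2, SE). Trim28, the corepressor of KRAB zinc finger proteins, fell by 0.14 ± 0.03 and 0.28 ± 0.03, and Rybp, another Polycomb subunit, fell by 0.16 ± 0.04 and 0.35 ± 0.04. Of 18 telomere maintenance genes, listed because Zscan4 acts on telomeres, 2 were higher and 1 lower in the SPOC line and 4 higher and 6 lower in the GFP line. The median log2 fold changes of these 18 genes were 0.05 and -0.00. Pot1a, a single-strand telomere-binding protein, fell by 0.12 ± 0.04 in the SPOC line and 0.29 ± 0.05 in the GFP line (log2, SE), and the telomere genes called higher are not named here. Of 13 tested genes for nuclear body proteins or induced by interferon, listed because Sp110 belongs to both groups, 3 were higher and none lower in the SPOC line and 3 were higher and 3 lower in the GFP line. Ddx58, the RNA sensor RIG-I, was higher by 0.83 ± 0.09 in the SPOC line and 1.04 ± 0.10 in the GFP line (log2, SE), opposite in direction to Sp110.

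The markers of each other cell type summed to less than the ES cell markers in every library, and some moved with auxin in either direction. The largest of these sums, the neural one, was higher with Dox+Auxin than with Dox or untreated in both lines. The 5 neural markers, of which 4 passed the filter, summed to 125 to 149 CPM in SPOC Dox+Auxin, 78.7 to 83.3 CPM in SPOC Dox and 85.2 to 95.6 CPM in untreated SPOC cells. In the GFP line they summed to 129 to 146 CPM with Dox+Auxin, 69.6 to 74.7 CPM with Dox and 76.7 to 80.4 CPM untreated. With Dox+Auxin against Dox, 2 of the 4 neural markers tested were called higher and 2 lower in each line. The 7 trophoblast markers, with Tpbpa at 0 in all libraries, summed to 36.1 to 38.9 CPM in SPOC Dox+Auxin against 27.2 to 34.2 CPM in SPOC Dox, and to 40.5 to 47.7 CPM in GFP Dox+Auxin against 30.7 to 33.1 CPM in GFP Dox. Of the 5 tested, 1 was called higher and 2 lower in the SPOC line, and 1 higher and 1 lower in the GFP line. The 5 mesoderm markers summed to 14.6 to 23.4 CPM in SPOC Dox+Auxin against 12.3 to 19.1 CPM in SPOC Dox, and to 20.8 to 23.0 CPM in GFP Dox+Auxin against 13.7 to 14.7 CPM in GFP Dox. Of the 3 tested, 0 were called in the SPOC line, and 2 were called higher and 1 lower in the GFP line. The 7 primitive endoderm markers summed to 8.27 to 10.4 CPM in SPOC Dox+Auxin against 9.11 to 13.7 CPM in SPOC Dox, and to 8.15 to 9.52 CPM in GFP Dox+Auxin against 9.41 to 11.1 CPM in GFP Dox. Of the 6 tested, 0 were called in the SPOC line, and 0 were called higher and 1 lower in the GFP line. Feeder fibroblast markers, with Col3a1, Postn and Twist2 under 1 CPM, summed to 23.4 to 29.8 CPM in SPOC Dox+Auxin against 30.1 to 35.5 CPM in SPOC Dox, and to 25.0 to 27.4 CPM in GFP Dox+Auxin against 34.3 to 36.8 CPM in GFP Dox. Of the 3 tested, 1 was called lower in the SPOC line and 3 in the GFP line, and 0 were called higher in either. The ES cell markers summed to 6204 to 6736 CPM in SPOC Dox+Auxin against 6543 to 7021 CPM in SPOC Dox, and to 5901 to 6183 CPM in GFP Dox+Auxin against 6532 to 6810 CPM in GFP Dox. Of the 10, 4 were called lower and 1 higher in the SPOC line, and 6 lower and 1 higher in the GFP line. The part of these shifts in the fall of the members was not tested.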

How the data were processed

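RNA of 27 libraries was sequenced as paired 100-base reads, per the labels' protocols. Per the submitters' processing notes, the tools were STAR 2.5.3a, featureCounts, Trim Galore 0.4.4 and Picard 2.18.2, with mm10 as genome. The sources used here give no annotation, strand setting or handling of multiply mapped reads. The deposited table gives raw counts per gene, which were used for every test. Its columns headed RPKM do not sum as RPKM would and behave as counts per kilobase scaled by a factor per library, so these deposited values were treated as a score and used only to compare levels between genes. The authors' allelic counts could not be tied to the libraries they are named for (0 of 27 followed best the total of the same name), and only their sums over all 27 libraries were used.

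The 53706 identifiers found in GENCODE M21, of 53801, took its symbols and GRCm38 positions. Counts were fitted with edgeR 4.0.16 (filterByExpr, TMM, robust quasi-likelihood) in 1 model with a term per group, and 11 contrasts were tested with Benjamini-Hochberg adjustment over all 18363 genes, with calls at adjusted p under 0.05. The summed copies were tested the same way in a table in which the sums replaced the copies. CPM are TMM-scaled, and log2 CPM used a prior count of 2. The SE is the log2 fold change divided by the square root of F, and approximate 95% intervals are 2-sided normal ones. The fit was tested on simulated data. Alternatives were DESeq2 size factors, the DESeq2 1.42.0 Wald test, no filter, fits of only the groups compared, a replicate block, 2 closely similar libraries as 1, and each library left out.

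The members and lists were chosen with earlier results of these data known. All members are named in each comparison, and up to 4 called genes per list and direction with a mean of at least 1 CPM, by size of change; some genes of the lists are not reported here. Profiles were compared over 27 libraries.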

Additional observations from a re-analysis of the deposited data

Results flagged for a closer look

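Within groups of 4 or 5 libraries, 5 of 48 sets of member values held a library whose gap to the nearest other was large for the group's range, where chance gives about 1 in 20. Zscan4a was lowest in SPOC Dox+Auxin replicate 5, at 0.991 CPM with the next at 1.26 CPM. It was highest in GFP Dox replicate 2, at 9.95 CPM with the next at 7.16 CPM, and in untreated GFP replicate 2, at 9.03 CPM with the next at 7.61 CPM. Zscan4c was highest in SPOC Dox+Auxin replicate 4, at 1.52 CPM with the next at 1.07 CPM. Zfp352 was lowest in SPOC Dox replicate 1, at 1.88 CPM with the next at 2.73 CPM.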

How the results depend on the processing

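Dox+Auxin against Dox and against untreated cells gave 1056 member values under 33 alternative settings, all lower and called, with log2 fold changes of -2.36 to -1.37 and adjusted p up to 2.6e-04. The line differences were less stable. In untreated cells members called lower in the SPOC line numbered 1, in place of 2, with 2 similar libraries as 1, and 0 to 3 with a library left out, genes called ranged from 1035 to 2299 in place of 2122, and the Zscan4 sum was -0.41 (adjusted p = 0.095) without the filter and -0.45 to -0.30 with a library left out. With Dox the Zscan4 sum was -0.55 (adjusted p = 0.068) in a fit of only those groups, genes called ranged from 1260 to 2087 and members called from 0 to 5. Same-numbered libraries deviated together in 9 of 12 pairs of the GFP line and 14 of 15 of the SPOC line (correlation over 0.1). Their median correlation was 0.37 among GFP libraries and 0.48 among SPOC libraries, against -0.11 in each for libraries of different number. The main fit did not take the numbers as pairing because some pairs fell short, which does not show that pairing is absent. The member calls for SPOC Dox against untreated cells depend on this choice. With a replicate block, SPOC Dox against untreated cells had 4145 genes called in place of 2478 and 2 members lower in place of 0, Zscan4c (-0.28, adjusted p = 0.026) and Zfp352 (-0.35, adjusted p = 0.0074), with the Zscan4 sum at -0.20 (adjusted p = 0.024), the Dox interaction 294 genes in place of 44, and the auxin interaction 3317 in place of 1495. With Dox+Auxin the line difference of Zscan4c, called at -0.51, was -0.51 (adjusted p = 0.0503) without the filter, -0.51 (0.053) in a fit of only those groups and -0.48 (0.085) with 2 libraries as 1. The 3 line comparisons have no blocked fit, since the block is nested in the line. DESeq2 called 95 genes in the Dox interaction. Values near 0 changed sign with no call. In GFP Dox against untreated cells Zscan4a was 0.00010 with DESeq2 size factors and 0.0067 in a fit of only those groups. In the line comparison with Dox+Auxin Tcstv3 was 0.015 with 2 libraries as 1. The Dox interaction of the Tcstv sum was 0.0015 with size factors, 0.0027 with DESeq2, 0.0046 without the filter and 0.0073 with the block. The cause was not tested. With a library left out, the ranges were as follows. In GFP Dox against untreated cells they were -0.15 to 0.072 for Zscan4a, -0.17 to 0.028 for Zscan4c, -0.20 to 0.058 for Zscan4d, -0.15 to 0.072 for Zscan4f, -0.22 to 0.060 for Tcstv1 and -0.16 to 0.056 for the Zscan4 sum. In SPOC Dox against untreated cells they were -0.27 to 0.053 for Tcstv3 and -0.25 to 0.019 for the Tcstv sum. For Tcstv3 in the line comparisons they were -0.32 to 0.030 with Dox and -0.22 to 0.10 with Dox+Auxin. The Dox interaction ranged from -0.21 to 0.050 for Zscan4d, -0.23 to 0.0055 for Zscan4f, -0.21 to 0.069 for Tcstv1, -0.17 to 0.054 for Sp110 and -0.11 to 0.20 for the Tcstv sum, and the auxin interaction from -0.069 to 0.15 for Zscan4c, -0.067 to 0.19 for Zscan4d, -0.11 to 0.32 for Tcstv3, -0.071 to 0.15 for Sp110 and -0.18 to 0.022 for the Zscan4 sum. Depth limits Tcstv1 and Tcstv3 most.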

Other observations

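The allele-assigned counts were summed over all 27 libraries, since their columns could not be tied to single libraries, and are given as values with no comparison between groups. Of Zscan4d, 48.2% of the total counts were assigned to an allele, 1083 to BL6 and 459 to CAST, a BL6 share of 70.2% (exact Clopper-Pearson 95% interval 67.9 to 72.5%, counting error only). The other copies carried little or no assignment: Zscan4a had 65 BL6 and 97 CAST counts, 3.36% of its total, and Zscan4c and Zscan4f had 0 of 3614 and 0 of 2659. Zfp352 was near balance, with 636 BL6 and 549 CAST counts and a BL6 share of 53.7% (50.8 to 56.5%). Tcstv1 and Tcstv3 were counted almost wholly on BL6, with 727 BL6 and 18 CAST counts (97.6%, 96.2 to 98.6%) and 425 BL6 and 37 CAST counts (92.0%, 89.1 to 94.3%). Sp110 had 12 BL6 and 13 CAST counts, under 1% of its total.

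Over the 15682 autosomal genes with at least 100 assigned counts, the median BL6 share was 50.4%, with the 5th and 95th percentiles at 20.2% and 80.2%. The share of these genes with a BL6 share at or above that of Tcstv1 was 1.19%, and at or above that of Tcstv3 2.26%. As a check of the allele names, Xist, which is induced from the BL6 chromosome in this cell line, had a BL6 share of 99.2%. How far shared sequence between copies, or copies that differ between the strains, enters the member shares was not tested.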
